A study of Mus musculus with 12 samples.

Results

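Mitochondrial ribosomal proteins were taken as the probe sets whose only gene symbol in the authors' annotation is Mrpl or Mrps followed by a number, with 1 such symbol not reported here. They made up 142 of 45037 probe sets, and after a filter on low signals 127 of them, from 74 genes, were among the probe sets tested. The brightest probe set stands for its gene below, so the members are 74 of 14044 genes tested. By known position in the ribosome 47 of the genes encode large-subunit proteins, among them Mrps30 and Mrps18a in spite of their names, and 26 encode small-subunit proteins. Mrps36 was placed in neither subunit, because its product is now known as a component of the 2-oxoglutarate dehydrogenase complex.

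The mitochondrial ribosome translates the few mRNAs of the mitochondrial genome, which encode core subunits of the respiratory chain and of ATP synthase. Its ribosomal RNAs are made in the organelle, but all of its proteins are encoded in the nucleus, translated in the cytosol and imported. Some of these proteins have bacterial counterparts and others are specific to mitochondria. In the heart, which depends on oxidative phosphorylation, inherited defects of several of them cause cardiomyopathy in people.

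The study asked how ischemic preconditioning (IP) changes gene expression in mouse hearts with and without A2BAR, an adenosine receptor whose gene is Adora2b. The tissue was the area at risk in the left ventricle of 12-week-old male mice, and its total RNA was measured on 12 Affymetrix arrays, 3 in each of 4 groups. The groups were A2BAR-/- IP, A2BAR-/- control, wild-type IP and wild-type control, called KO and WT below. IP was 4 cycles of 5 min of ischemia with 5 min of reperfusion in each, and tissue was frozen after a further 2 h of reperfusion. All mice had a BL6/C57 background. The labels call the controls both untreated and sham operated, and the WT mice both bought in and littermates, so a contribution of surgery or of breeding cannot be told apart from IP or from genotype. Nothing says that a group's 3 arrays were 3 different animals, and the p-values therefore reflect array-to-array spread, which may be technical. The A2BAR-/- mice were bred in house.

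The median signal of an array lay between 66.5 and 81.1 units. Adora2b had signals of 52.3, 61.5 and 47.7 units on KO IP arrays, 18.6, 52.0 and 62.6 units on KO control arrays, 207, 165 and 156 units on WT IP arrays and 42.1, 71.1 and 72.0 units on WT control arrays. KO minus WT was -1.45 ± 0.33 on the log2 scale after IP (adjusted p = 0.0958) and -0.42 in controls (adjusted p = 0.869). Knockout and wild-type arrays were thus separate after IP and overlapped in controls, and whether this probe set lies within the deleted part is not stated. All 10 cardiomyocyte markers were detected, with summed signals between 429313 and 514176 units per array. Neutrophil markers had summed signals between 792 and 8401 units on WT control arrays, and the highest of these was replicate 3, with an S100a8 signal of 2959 units against 234 and 334 units on the other two. That array also has an unbroken run of 1425 zeros in the deposited table, treated here as missing, which leaves 6 of the 74 genes with 2 WT control arrays.

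After IP, transcripts of the mitochondrial ribosome were lower in WT hearts as a group, by small amounts. A gene passed where the adjusted p was below 0.05 in limma, over all 14044 genes. In KO hearts 3 of 74 genes fell after IP (4.05%, beside 7.32% of all genes tested) and 0 rose (beside 4.82%). In WT hearts 21 of 74 fell (28.4%, beside 1410 of all 14044 genes, or 10%) and 0 rose (beside 6.54%). The 3 genes that fell in KO hearts, Mrps2, Mrpl47 and Mrpl49, were among these 21. At an unadjusted limma p below 0.05, 0 members were higher in KO hearts (beside 8.44% of all genes) and 0 in WT hearts (beside 11.3%), while 18 were lower in KO hearts (beside 18%) and 40 in WT hearts (beside 18.5%). The falls were below 2-fold in every case and lay between 15.3% and 41.7% in WT hearts, with a median of 24.5%.

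Changes below the threshold also ran mostly one way. The log2 change was below 0 for 63 of 74 genes in KO hearts (85.1%, beside 63.1% of all genes) and for 73 of 74 in WT hearts (98.6%, beside 56.6%). These counts rest on the brightest probe set of each gene, and dimmer ones did not always share its direction. Among the 33 genes with several probe sets past the filter, all of a gene's probe sets had the same sign in WT hearts for 21. In the authors' deposited log2 differences for IP, 118 of 142 member probe sets were below 0 in WT hearts and 108 in KO hearts. The median log2 change was -0.11 in KO hearts, where that of all genes was -0.08, and -0.21 in WT hearts, where that of all genes was -0.05. Every IP array lay below every control measured for 24 genes in KO hearts (32.4%, beside 22.4% of all genes) and for 44 genes in WT hearts (59.5%, beside 20.8%). Of these 44, 4 have only 2 WT control arrays, with which separation is easier to reach, and 40 have 3. IP arrays lay above every control for 0 genes in KO hearts (beside 9.71%) and 0 in WT hearts (beside 12.7%). In these bulk samples, fewer cells of a type and less RNA per cell cannot be told apart.

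Genes of both subunits were among those that fell. Over all genes tested, 7.32% fell in KO hearts and 10% in WT hearts. Among large-subunit genes, 2 of 47 fell in KO hearts, a share below that of all genes, and 15 of 47 in WT hearts, with a median log2 change of -0.11 in KO and -0.23 in WT hearts. Among small-subunit genes, 1 of 26 fell in KO hearts and 6 of 26 in WT hearts, with medians of -0.10 in KO and -0.21 in WT hearts. By origin, the genes that fell in WT hearts were 10 of 29 large-subunit genes with a bacterial counterpart and 5 of 18 that are specific to mitochondria. In the small subunit they were 4 of 16 with a counterpart and 2 of 10 without. No difference between these shares was tested.

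**Figure D1:**
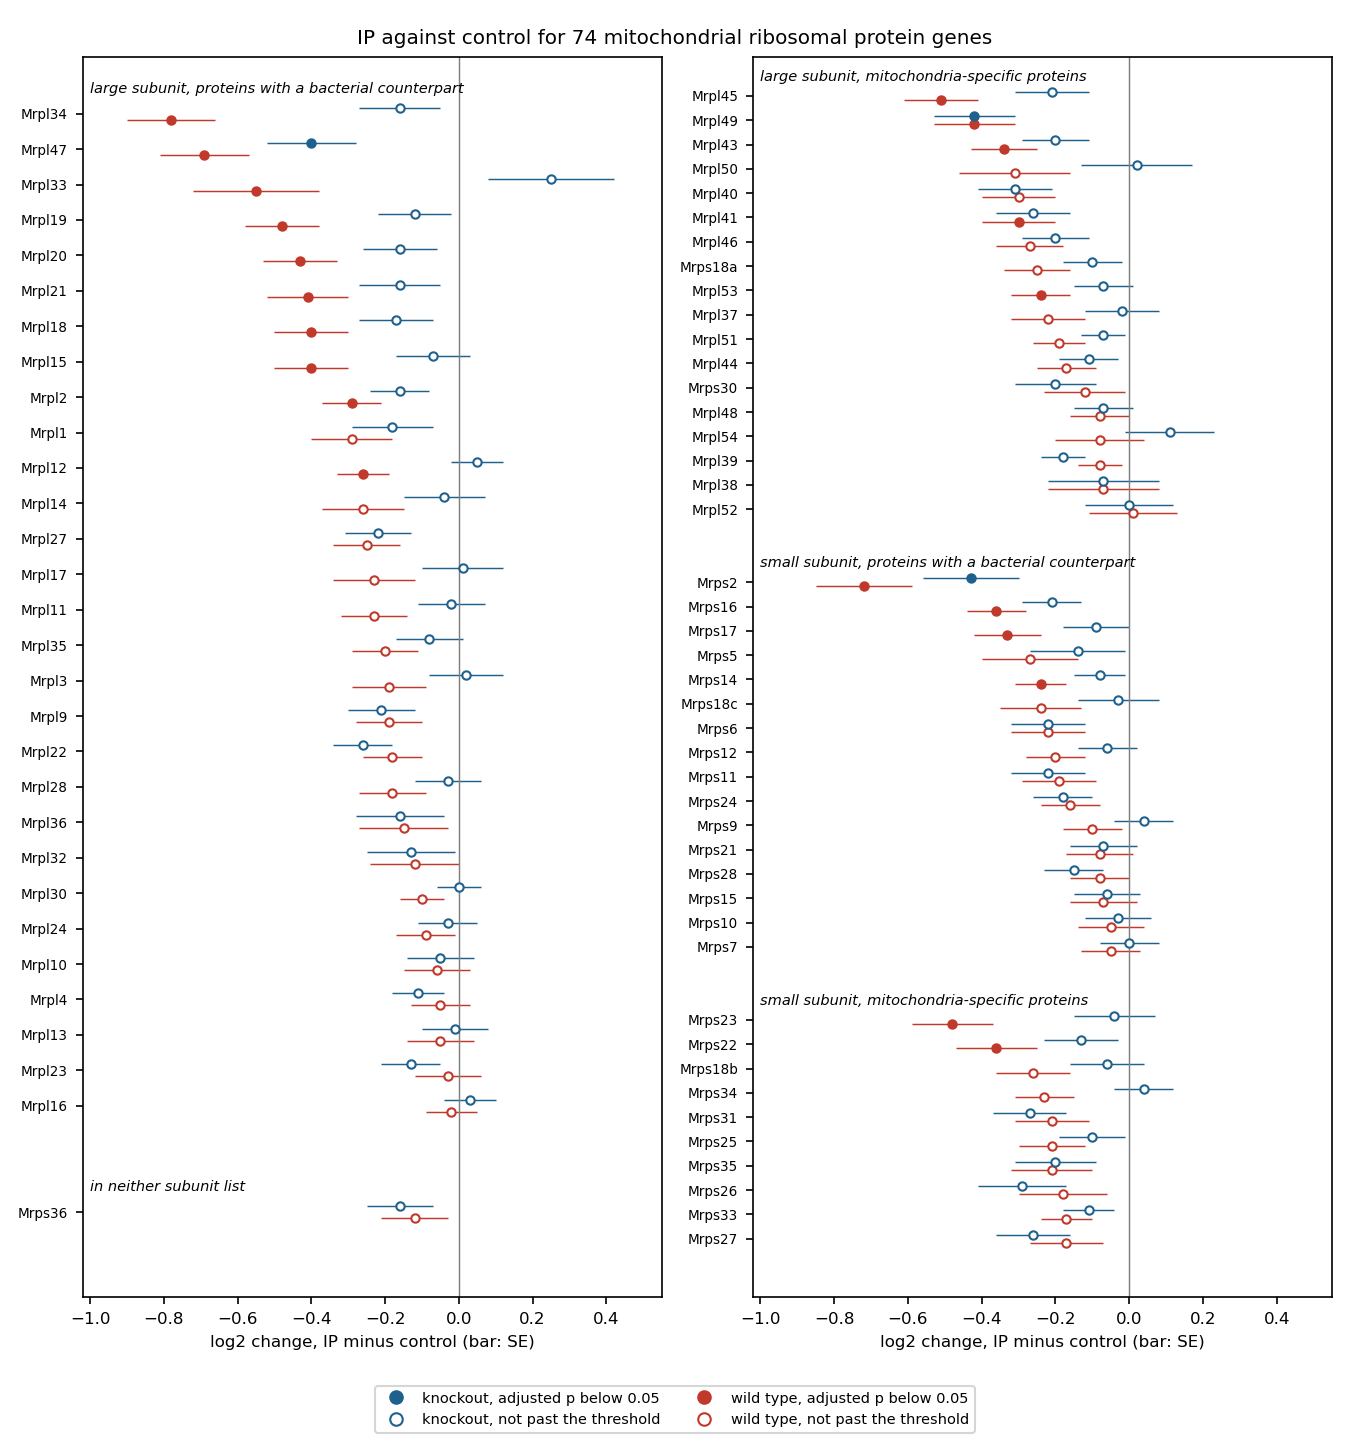
Each row is a gene, with the log2 change of IP minus control on the horizontal axis, its SE as a bar, KO hearts in blue and WT hearts in red, and filled points for an adjusted p below 0.05. In WT hearts 73 of 74 points lie below 0 and 21 are filled, and in KO hearts 63 lie below 0 and 3 are filled.

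Promoters of 5 genes are shown because they belong to genes the results turn on: Mrpl47, Mrps2 and Mrpl49, which fell in both genotypes, and Mrpl34 and Mrpl45, whose windows hold matches to motifs of known regulators of nuclear genes for mitochondria. Each window, from RefSeq on GRCm38.p6, runs 5′ to 3′ on the gene's strand from 250 bases before the annotated start to 50 after it. They lie at chr3:32736706-32737005 (minus strand), chr2:28467816-28468115 (plus), chr19:6057706-6058005 (minus), chr8:71464676-71464975 (plus) and chr11:97315466-97315765 (plus), in the order printed. Capitals mark motif matches.
Mrpl47: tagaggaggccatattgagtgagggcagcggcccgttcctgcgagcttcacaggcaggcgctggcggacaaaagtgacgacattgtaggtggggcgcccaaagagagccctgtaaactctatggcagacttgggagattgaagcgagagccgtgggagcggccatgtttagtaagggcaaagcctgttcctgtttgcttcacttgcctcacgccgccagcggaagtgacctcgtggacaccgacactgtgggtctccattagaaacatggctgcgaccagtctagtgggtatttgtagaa
Mrps2: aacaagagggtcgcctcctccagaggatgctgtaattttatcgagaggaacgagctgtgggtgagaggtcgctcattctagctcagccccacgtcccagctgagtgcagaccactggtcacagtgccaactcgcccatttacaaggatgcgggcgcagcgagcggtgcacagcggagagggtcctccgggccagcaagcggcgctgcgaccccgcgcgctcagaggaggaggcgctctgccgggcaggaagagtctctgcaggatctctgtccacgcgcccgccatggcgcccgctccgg
Mrpl49: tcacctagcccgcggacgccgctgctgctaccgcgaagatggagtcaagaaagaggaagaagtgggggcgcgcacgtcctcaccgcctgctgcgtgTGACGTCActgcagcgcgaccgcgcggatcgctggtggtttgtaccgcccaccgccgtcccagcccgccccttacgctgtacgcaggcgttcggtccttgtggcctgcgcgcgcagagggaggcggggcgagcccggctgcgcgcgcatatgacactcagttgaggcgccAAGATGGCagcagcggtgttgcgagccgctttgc
Mrpl34: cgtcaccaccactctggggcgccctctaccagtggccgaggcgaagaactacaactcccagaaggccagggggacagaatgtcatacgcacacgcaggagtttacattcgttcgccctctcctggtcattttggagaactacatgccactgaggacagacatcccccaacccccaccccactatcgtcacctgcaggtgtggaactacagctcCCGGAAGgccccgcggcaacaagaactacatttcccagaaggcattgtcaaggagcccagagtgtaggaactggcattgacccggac
Mrpl45: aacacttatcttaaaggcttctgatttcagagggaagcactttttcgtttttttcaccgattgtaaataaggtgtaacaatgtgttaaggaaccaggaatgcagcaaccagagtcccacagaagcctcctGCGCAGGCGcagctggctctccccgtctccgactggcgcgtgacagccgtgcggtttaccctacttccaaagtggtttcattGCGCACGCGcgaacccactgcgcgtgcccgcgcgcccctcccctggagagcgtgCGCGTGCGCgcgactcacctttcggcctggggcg

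Windows were found for 65 of the 74 genes, and 6 motifs were searched on both strands, none of which contains another. CCGGAAG, the core bound by ETS factors such as GABP, was in the windows of 36.9% of these genes, beside 19.0% of all genes tested that had a window and 8.86% of all windows in the table. GCGCANGCG, the core of the NRF1 site, was in 23.1% of the genes, beside 14.6% of tested genes and 6.25% of all windows. AAGATGGC, the core of the YY1 site, was in 16.9%, beside 5.11% of tested genes and 2.75% of all windows. Of the other motifs, CACGTG, which Myc binds, was in 7.69% of the genes (11.6% of tested genes, 7.15% of all windows). TGACGTCA, the cAMP response element, was in 3.08% (3.43% of tested genes, 1.79% of all windows), and TCAAGGTCA, an ERR element, in 0 of 65 (0.332% of tested genes, 0.423% of all windows). A gene was counted if any of its windows matched, whereas the shares of all windows count single windows. Of the 71 member windows, 33.8% held the ETS core, 21.1% the NRF1 core and 15.5% the YY1 core. CACGTG was in 9.86% of them, the cAMP response element in 2.82% and the ERR element in 0%.

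The Mrpl34 window holds 1 ETS match, 37 bases before the start, and the Mrpl45 window holds 3 NRF1 matches. The Mrpl49 window holds a cAMP response element 154 bases before the start and a YY1 match just after it. Neither the Mrpl47 nor the Mrps2 window holds any of the letters searched. Among genes with a window, the ETS match was present in 9 of the 19 that fell in WT hearts and in 15 of the 46 others. NRF1 matches ran the other way, in 2 of the 19 and in 13 of the 46. These counts describe the windows, and no difference between them was tested.

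Among large-subunit proteins with a bacterial counterpart, Mrpl34, a short protein of the ribosomal core, had the largest change. Its signals were 3464, 2877 and 2761 units on KO IP arrays, against 3356, 3704 and 3097 units on KO controls. In WT hearts they were 2108, 2579 and 2423 units after IP, against 4359 and 3785 units in controls, with replicate 3 missing. The KO arrays overlapped, while every WT IP array lay below every WT control and below every KO array. On the log2 scale Mrpl34 changed by -0.16 ± 0.11 in KO hearts (adjusted p = 0.396) and -0.78 ± 0.12 in WT hearts (adjusted p = 0.000924), where it fell by 41.7%. With the run of zeros kept as values, the WT change would be 1.89 (adjusted p = 0.48).

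Mrpl47, the counterpart of a protein at the exit of the bacterial nascent-chain tunnel, fell in both genotypes. It had 2244, 2250 and 1739 units on KO IP arrays, against 3047, 2455 and 2697 units on KO controls. On WT arrays it had 1716, 2049 and 1848 units after IP, against 3381, 2865 and 2853 units in controls. IP and control arrays were separate in both genotypes, with log2 changes of -0.40 ± 0.12 in KO hearts (adjusted p = 0.0429) and -0.69 ± 0.12 in WT hearts (adjusted p = 0.00134). The KO call ended under 14 of 27 other settings, and the WT call under 0. Tested among all kept probe sets, a dimmer Mrpl47 probe set changed by -0.31 in KO hearts (adjusted p = 0.462). Its change in WT hearts was -0.53 (adjusted p = 0.149).

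Mrpl33 fell in WT hearts, but its readings did not match between tables. It had 2554, 2716 and 3039 units on KO IP arrays, against 1946, 2978 and 2164 units on KO controls, and 2177, 1934 and 2729 units on WT IP arrays, against 4141, 3046 and 2854 units on WT controls. The KO arrays overlapped and the WT arrays did not. Its log2 change was 0.25 ± 0.17 in KO hearts (adjusted p = 0.385) and -0.55 ± 0.17 in WT hearts (adjusted p = 0.038). In the authors' deposited table the same probe set has a log2 difference of 0 in KO hearts and -0.02 in WT hearts. Its mean log2 level there is 10.81, beside 11.37 here, so the values compared are not on the same scale. The WT call here ended under 11 of 27 other settings.

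The other genes of this class among the largest falls were Mrpl19, Mrpl20, Mrpl21, Mrpl15 and Mrpl18, the last of which belongs to the family that binds the small ribosomal RNA of bacterial large subunits. Their WT log2 changes were -0.48 for Mrpl19, -0.43 for Mrpl20, -0.41 for Mrpl21, -0.40 for Mrpl15 and -0.40 for Mrpl18 (adjusted p between 0.00379 and 0.019), and none of the 5 passed in KO hearts. Calls for Mrpl19 and Mrpl20 held under all 27 other settings, while that of Mrpl21 ended under 6 (to -0.18, adjusted p up to 0.605) and those of Mrpl18 and Mrpl15 under 3 each. Leaving out WT IP replicate 1 or WT control replicate 1 ended the calls of Mrpl21, Mrpl18 and Mrpl15. The brightest probe set of Mrpl19 fell by 0.48 on the log2 scale and another of its probe sets by 0.60, while the dimmer probe set of Mrpl21 had a change of 0.05. A dim Mrpl15 probe set changed by 0.82 in KO and -0.14 in WT hearts. In the authors' deposited table the probe sets used for Mrpl15 and Mrpl21 have the decision 0 for IP in WT hearts, at -0.36 and -0.32. Those of Mrpl18, Mrpl19 and Mrpl20 have -1 (lower) there, and that of Mrpl18 also has -1 in KO hearts, at -0.26.

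Mrpl12, the stalk protein that recruits translation factors to the ribosome, had 9183, 9559 and 8413 units on KO IP arrays, against 8747, 8301 and 9200 units on KO controls. In WT hearts it had 7338, 7650 and 7491 units after IP, against 8931, 8937 and 9036 units in controls. The WT arrays were tight and separate, and the KO arrays overlapped. The log2 change was 0.05 ± 0.07 in KO hearts (adjusted p = 0.702) and -0.26 ± 0.07 in WT hearts (adjusted p = 0.0145), and the WT call ended under 3 of 27 other settings, among them without WT IP replicate 1. Mrpl3, whose human counterpart is mutated in a form of cardiomyopathy, had log2 changes of 0.02 ± 0.10 in KO hearts and -0.19 ± 0.10 in WT hearts, and passed in neither. In the authors' deposited table the same Mrpl3 probe set has the decision -1 (lower) for IP in WT hearts, at a log2 difference of -0.30. The Mrpl12 probe set has the decision 0 there, at -0.22.

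Among large-subunit proteins specific to mitochondria, Mrpl45, which in mammalian structures anchors the ribosome to the inner membrane, had 3399, 3205 and 2790 units on KO IP arrays, against 3425, 3923 and 3485 units on KO controls. It had 2348, 2520 and 2268 units on WT IP arrays, against 3702, 3328 and 3146 units on WT controls. Every IP array was below every control in each genotype. It changed by -0.21 ± 0.10 in KO hearts (adjusted p = 0.182) and -0.51 ± 0.10 in WT hearts (adjusted p = 0.00248), and the WT call held under all 27 other settings.

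Mrpl49 fell in both genotypes by the same fitted amount. It had 1345, 1017 and 1172 units on KO IP arrays, against 1493, 1668 and 1560 units on KO controls, and 1007, 1099 and 1136 units on WT IP arrays, against 1479, 1463 and 1423 units on WT controls. No IP array reached its controls. The log2 change was -0.42 ± 0.11 in KO hearts (adjusted p = 0.0183) and -0.42 ± 0.11 in WT hearts (adjusted p = 0.0139), and the difference between them was 0.00, with a 95% interval of -0.32 to 0.33. Its WT call ended without WT IP replicate 1, and its KO call under 4 of 27 other settings. Those 4 were the removal of KO IP replicate 2, KO IP replicate 3 or KO control replicate 2, and the averaging of its probe sets. A dimmer Mrpl49 probe set changed by -0.18 in KO hearts (adjusted p = 0.446) and -0.24 in WT hearts (adjusted p = 0.237), each tested among all kept probe sets. Mrpl44, whose human counterpart is also mutated in cardiomyopathy, passed in neither genotype, at -0.11 ± 0.08 in KO hearts and -0.17 ± 0.08 in WT hearts. Mrpl51, the brightest member, had changes of -0.07 ± 0.06 in KO hearts and -0.19 ± 0.07 in WT hearts, and did not pass either. In the authors' deposited table the probe sets used here for Mrpl44 and Mrpl51 have the decision 0 for IP in WT hearts. A dimmer Mrpl44 probe set has -1 there, at -0.32, and dimmer Mrpl51 probe sets have -1, at -0.45 and -0.53. The other Mrpl44 probe sets have 0.

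In the small subunit, Mrps2, which has a bacterial counterpart, fell in both genotypes. It had 2237, 2026 and 1582 units on KO IP arrays, against 2395, 2600 and 2835 units on KO controls, and 1375, 1801 and 1675 units on WT IP arrays, against 2514, 2518 and 2955 units on WT controls. The groups did not overlap in either genotype. The log2 change was -0.43 ± 0.13 in KO hearts (adjusted p = 0.0469) and -0.72 ± 0.13 in WT hearts (adjusted p = 0.00213), and the KO call ended under 19 of 27 other settings and the WT call under 0. A dimmer Mrps2 probe set changed by -0.16 in KO hearts (adjusted p = 0.658) and by -0.94 in WT hearts (adjusted p = 0.0034), each tested among all kept probe sets.

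Mrps23, a mitochondria-specific small-subunit protein, had 4019, 3942 and 4095 units on KO IP arrays, against 4285, 4670 and 3519 units on KO controls. Its WT signals were 2508, 3069 and 2813 units after IP, against 4472, 3705 and 3578 units in controls. The KO IP arrays lay inside the range of their controls, and all WT IP arrays were below theirs. Mrps23 changed by -0.04 ± 0.11 in KO hearts (adjusted p = 0.87) and -0.48 ± 0.11 in WT hearts (adjusted p = 0.00948). A second Mrps23 probe set of the same mean level changed by -0.13 in KO hearts (adjusted p = 0.333) and -0.28 in WT hearts (adjusted p = 0.0232, among all kept probe sets), and a dim one by 0.19 in WT hearts (adjusted p = 0.636). The WT call ended without WT IP replicate 1 and with its probe sets averaged, at -0.19.

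Mrps22, mutated in a human mitochondrial disease that affects the heart, had 1762, 1664 and 1853 units on KO IP arrays, against 1870, 1896 and 2007 units on KO controls, and 1407, 1767 and 1458 units on WT IP arrays, against 2111 and 1860 units on the 2 WT controls measured. Its change in WT hearts was -0.36 ± 0.11 (adjusted p = 0.044), a call lost or reversed under 20 of 27 other settings. The same Mrps22 probe set has the decision 0 for IP in WT hearts in the authors' deposited table, at -0.31. Mrps12, a protein of the decoding site, had changes of -0.06 ± 0.08 in KO hearts and -0.20 ± 0.08 in WT hearts, and Mrps5, the dimmest member, of -0.14 ± 0.13 in KO hearts and -0.27 ± 0.13 in WT hearts. Neither passed.

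**Figure D2:**
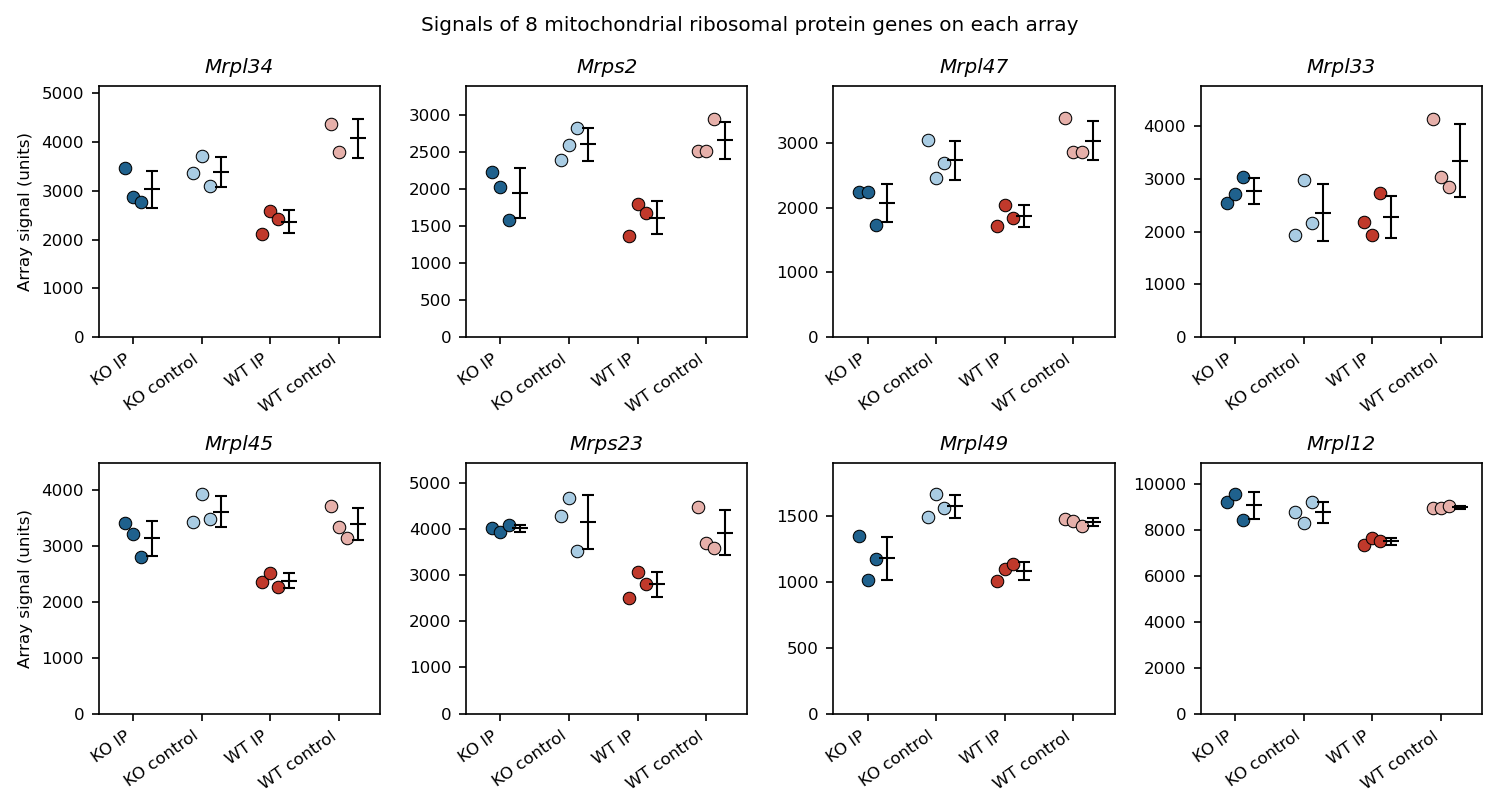
Array signal in units (vertical axis, from 0) of 8 genes in KO IP, KO control, WT IP and WT control hearts, with a point for each array and the mean with its SD beside the points. WT IP arrays lie below WT controls in all 8 genes, while KO IP and KO control arrays overlap for Mrpl34, Mrpl33, Mrps23 and Mrpl12.

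The count in WT hearts rested partly on single arrays and settings. It was 7 without WT IP replicate 1 (9.46% of members, beside 5.98% of all genes under that setting) and 10 without WT control replicate 1 (13.5%, beside 6.97%). It was 13 with arrays scaled to the same median (17.6%, beside 7.16%) and 11 without an intensity trend (14.9%, beside 8%), and in each case all of these were among the 21. It was 18 without WT control replicate 3, the array with high neutrophil markers (24.3%, beside 8%), and 18 with the actin ratio described below as a covariate (24.3%, beside 9.55%). In KO hearts it was 0 without KO IP replicate 3 (beside 3.56% of all genes under that setting), and 1 (1.35% of members) without KO IP replicate 2 (beside 5.86%), KO control replicate 1 (beside 5.23%), KO control replicate 3 (beside 3.85%) or WT control replicate 2 (beside 6.74%). It was also 1 with arrays scaled to the same median (beside 4.74%).

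The count was larger over both genotypes. In the contrast that averages the IP effect over KO and WT hearts, 33 of 74 genes fell (44.6%, beside 17.7% of all genes) and 0 rose (beside 8.52%), with a median log2 change of -0.15 where that of all genes was -0.07. The change was below 0 for 71 of 74 (beside 60.4% of all genes), 44 had an unadjusted limma p below 0.05 and were lower (beside 25.1%), and 0 did and were higher (beside 12.1%). Among the 33 genes with several probe sets past the filter, all of a gene's probe sets had the same sign in this contrast for 19. Mrps2 at -0.57, Mrpl47 at -0.54 and Mrpl34 at -0.47 led, and 19 of the 21 genes that fell in WT hearts were included. The average contains the WT change from the same arrays, so this overlap is not a separate result. Mrpl40, a large-subunit protein specific to mitochondria, passed here at -0.30 (adjusted p = 0.00617) though in neither genotype alone. Its changes were -0.31 in KO hearts (adjusted p = 0.0639) and -0.30 in WT hearts (adjusted p = 0.0592). Mrps16, a small-subunit protein with a bacterial counterpart, and the mitochondria-specific Mrpl41 were also among the 12 largest falls here. The count was 13 with arrays scaled to the same median (17.6%, beside 12.5% of all genes under that setting), 18 without an intensity trend (24.3%, beside 15.8%), 20 without WT IP replicate 1 (27%, beside 14.9%) and 19 without WT control replicate 1 (25.7%, beside 15.9%).

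Between KO and WT control hearts no member passed the test, with 0 of 74 called (beside 0.0356% of all genes lower and 0% higher). At an unadjusted limma p below 0.05, 3 were lower (beside 3.45%) and 0 higher (beside 3.15%). The difference was below 0 for 37 of 74 (beside 50.5%), and the arrays were separate for 3 genes higher in KO hearts (beside 5.92%) and 3 lower (beside 6.25%), with 1 of each measured on 2 WT control arrays. The lowest adjusted p was 0.582, for Mrpl33, at a log2 change of -0.50. Mrps6 followed at -0.28 and Mrpl22, which lines the exit tunnel, at -0.19.

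After IP, 59 of 74 genes had higher values in KO than in WT hearts and 15 lower ones (20.3%, beside 54.7% of all genes), and 0 passed the test (beside 0.0285% of all genes higher and 0.0854% lower). The median log2 difference was 0.12, where that of all genes was -0.03. All 3 KO arrays lay above all 3 WT arrays for 33 genes (44.6%, beside 7.74% of all genes), and below them for 4 (5.41%, beside 11.9%). At an unadjusted limma p below 0.05, 18 were higher (beside 5.04%) and 4 lower (beside 7.70%). This comparison shares its WT IP arrays with the test of IP in WT hearts.

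The smallest p-values after IP were those of Mrps34, Mrps23 and Mrpl12. Mrps34, a small-subunit protein specific to mitochondria, had 6289, 5584 and 6472 units on KO IP arrays, against 4988, 4706 and 4465 units on WT IP arrays. Its groups were separate, at a log2 difference of 0.37 ± 0.08 (adjusted p = 0.08). The difference was 0.53 ± 0.11 for Mrps23 (adjusted p = 0.0812) and 0.27 ± 0.07 for Mrpl12 (adjusted p = 0.112).

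The test of the genotype difference in the IP effect called 0 of 74 members and 0 of 14044 genes. At an unadjusted limma p below 0.05, 8 members had a more positive effect in KO hearts (10.8%, beside 3.26% of all genes) and 0 a more negative one (beside 4.61%). The difference, KO minus WT, was 0.62 for Mrpl34 (95% interval 0.26 to 0.97, adjusted p = 0.47), 0.79 for Mrpl33 (0.29 to 1.30, adjusted p = 0.495) and 0.31 for Mrpl12 (0.11 to 0.50, adjusted p = 0.495). These 3 genes were picked for the smallest p among the members. Their intervals are for single genes and are not adjusted for that choice, so that they leave out 0 is no separate result. Mrpl34 lacks WT control replicate 3, and its difference was -2.05 with zeros kept. The change was more negative in WT hearts for 57 of 74 genes and more negative in KO hearts for 17 (23%, beside 54.2% of all genes). The 21 genes that fell in WT hearts had a median change of -0.16 in KO hearts and -0.40 in WT hearts, and these 21 were chosen by their WT values. Across the 74 genes the changes in KO and WT hearts, computed from different arrays, had a Pearson r of 0.35 and a Spearman rho of 0.33, where the Pearson r over all genes tested was 0.71. The members' changes ran only from -0.43 to 0.25 in KO hearts and from -0.78 to 0.01 in WT hearts, a narrower range than that of all genes. The values of r for members and for all genes are therefore not comparable. All are given as a description because genes are not independent.

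**Figure D3:**
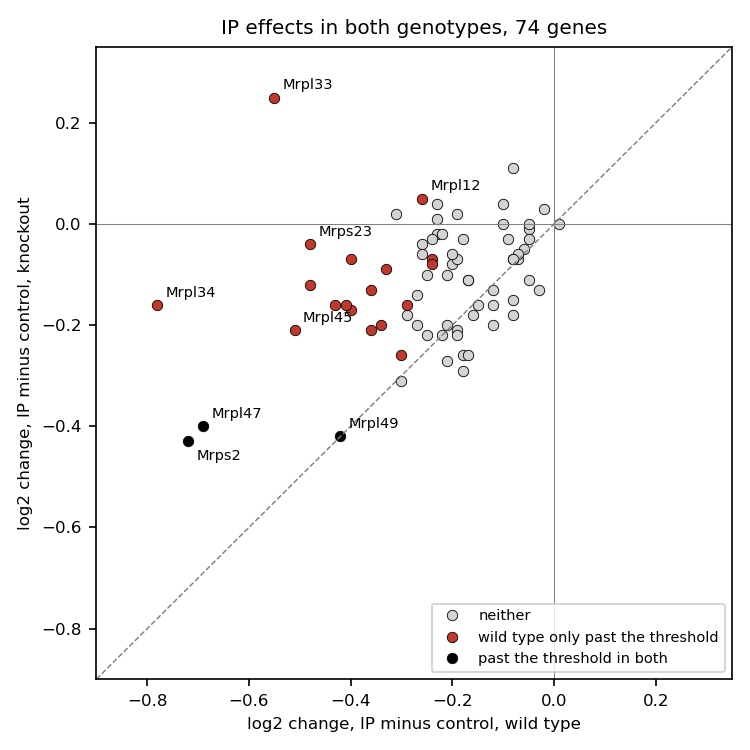
Each point is 1 of 74 genes, with the log2 change of IP minus control in KO hearts on the vertical axis and in WT hearts on the horizontal axis; the dashed line marks equal change. Most points (57) lie above that line, and 3 genes, Mrpl47, Mrps2 and Mrpl49, passed in both genotypes.

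Other gene groups on the same arrays had other counts. Over all genes tested, 4.82% rose and 7.32% fell in KO hearts, and 6.54% rose and 10% fell in WT hearts. At an unadjusted limma p below 0.05, 8.44% were higher and 18% lower in KO hearts, and 11.3% higher and 18.5% lower in WT hearts. Of 83 genes for respiratory chain and ATP synthase subunits, 0 passed in KO hearts (unadjusted, 0 higher and 4 lower). In WT hearts 12 rose and 1 fell (unadjusted, 29 higher and 3 lower), with medians of -0.05 in KO and 0.10 in WT hearts. Of 72 cytosolic ribosomal protein genes, 0 passed in KO hearts (unadjusted, 1 higher and 0 lower). In WT hearts 1 rose (unadjusted, 7 higher and 3 lower), with medians of -0.02 in KO and 0.06 in WT hearts. Of 10 cardiomyocyte markers, 0 passed in KO hearts (unadjusted, 0 in either direction). In WT hearts 5 rose (unadjusted, 8 higher and 0 lower), with medians of -0.04 in KO and 0.20 in WT hearts.

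Per array, the median member deviated from its mean over the 12 arrays by -0.06 to 0.03 log2 units on KO IP arrays, against 0.07 to 0.12 on KO controls. The deviation was -0.19 to -0.10 on WT IP arrays, against 0.02 to 0.15 on WT controls. IP arrays were thus below control arrays in both genotypes, and the 3 WT IP arrays were the lowest of all 12. The median over all genes also lay lower after IP, at -0.056 to -0.027 on KO IP arrays, against 0.036 to 0.061 on KO controls, and at -0.013 to -0.006 on WT IP arrays, against 0.032 to 0.066 on WT controls. For respiratory chain genes the same measure was -0.08 to -0.04 on KO IP arrays, against -0.04 to 0.04 on KO controls, and 0.05 to 0.11 on WT IP arrays, against -0.08 to 0.04 on WT controls.

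**Figure D4:**
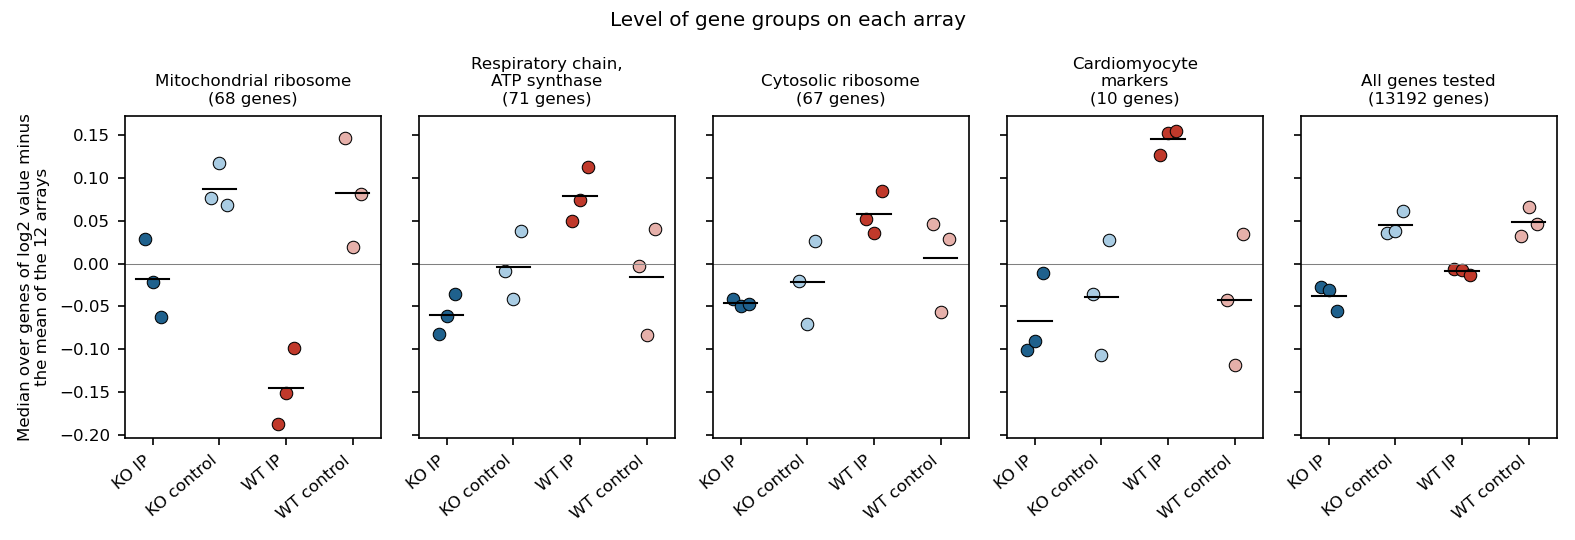
Median over genes of the log2 value minus its mean over the 12 arrays (vertical axis), for each array (points) of the KO IP, KO control, WT IP and WT control groups, with a line at each group's mean, for 5 sets of genes measured on all arrays. Mitochondrial ribosome genes are lowest on WT IP arrays (-0.19 to -0.10), where respiratory chain genes (0.05 to 0.11) and cardiomyocyte markers (0.13 to 0.16) are highest.

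Markers of other cells also changed with IP, and a sign of RNA quality differed between groups. The shares of all genes that rose or fell are those given above for the other gene groups. Of 7 neutrophil markers tested, 5 rose in KO hearts and 7 in WT hearts, and their summed signal was 7125 to 15467 units on KO IP arrays, against 1265 to 2035 units on KO controls. On WT arrays it was 8433 to 24235 units after IP, against 792 to 8401 units in controls. Of 8 endothelial markers, 3 fell and 1 rose in KO hearts, and 4 fell and 1 rose in WT hearts; their summed signal was 14639 to 15616 units on KO IP arrays, against 14499 to 17888 units on KO controls, and 12998 to 14167 units on WT IP arrays, against 15844 to 17923 units on WT controls. Of 7 fibroblast markers, 0 passed in KO hearts and 1 fell in WT hearts, and of 9 monocyte and macrophage markers 1 rose and 1 fell in each genotype. Of 3 erythroid markers tested, 0 passed in KO hearts and 1 rose in WT hearts. No marker gene tested was at 0. The ratio of 3′ to 5′ beta-actin signals was 1.79 to 1.93 on KO IP arrays, against 1.85 to 2.64 on KO controls, and 2.33 to 2.62 on WT IP arrays, against 2.06 to 2.48 on WT controls. The part of other cells in the changes of the members was not tested.

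Other genes that act with the mitochondrial ribosome were examined as lists, and most genes of each list did not pass. All 7 ribosomal proteins that carry other symbols, among them Dap3, Ptcd3 and Chchd1, had values below 0 in both genotypes (63.1% of all genes did in KO and 56.6% in WT hearts), and 0 passed. At an unadjusted limma p below 0.05, 0 were lower in KO hearts (beside 18% of all genes) and 2 in WT hearts (beside 18.5%), and 0 were higher in either. Of 11 translation factors tested, 0 passed in KO hearts (unadjusted, 2 lower, beside 18% of all genes). In WT hearts 4 were lower unadjusted (beside 18.5%), and 2 fell by adjusted p (beside 10% of all genes). These were the initiation factor Mtif2, at -0.30 ± 0.11 in KO hearts (adjusted p = 0.0865) and -0.57 ± 0.11 in WT hearts (adjusted p = 0.00278), and the elongation factor Tsfm, at -0.09 ± 0.15 in KO hearts and -0.55 ± 0.15 in WT hearts (adjusted p = 0.0224). The Tsfm call ended under 5 of 27 other settings, among them without WT IP replicate 1 or WT control replicate 1, and the Mtif2 call under 0.

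Of 22 assembly and rRNA modification factors tested, 5 fell in KO hearts (7.32% of all genes did), 7 fell in WT hearts (10% of all genes) and 0 rose in either. The other 17 in KO hearts and 15 in WT hearts did not pass. Mrm1, which methylates the large mitochondrial rRNA, had 274, 254 and 211 units on KO IP arrays, against 584, 516 and 821 units on KO controls, and 196, 275 and 345 units on WT IP arrays, against 623, 665 and 541 units on WT controls. The groups did not overlap, at log2 changes of -1.30 ± 0.20 in KO hearts (adjusted p = 0.000625) and -1.15 ± 0.20 in WT hearts (adjusted p = 0.00151). Mterf4, which guides an rRNA methyltransferase in assembly, changed by -0.50 ± 0.12 in KO hearts (adjusted p = 0.015) and -0.74 ± 0.12 in WT hearts (adjusted p = 0.000924). Gtpbp10, a GTPase of large-subunit assembly, changed by -0.28 ± 0.15 in KO hearts (adjusted p = 0.277) and -0.85 ± 0.15 in WT hearts (adjusted p = 0.00201). Mrm2, another rRNA methyltransferase, changed by 0.06 ± 0.17 in KO hearts (adjusted p = 0.863) and -0.76 ± 0.17 in WT hearts (adjusted p = 0.00765). Mrm3, also such an enzyme, changed by -0.43 ± 0.11 in KO hearts (adjusted p = 0.0171) and -0.65 ± 0.11 in WT hearts (adjusted p = 0.00106). The test passed in KO hearts alone for Rpusd4, a pseudouridine synthase, at -0.50 ± 0.15 in KO and -0.30 ± 0.15 in WT hearts (a KO call that ended under 10 of 27 other settings, with adjusted p up to 0.144), and for Dhx30, an RNA helicase, at -0.41 ± 0.09 in KO and -0.24 ± 0.09 in WT hearts. The KO calls ended without KO IP replicate 3 for Mrm3 (3 of 27 settings), Mterf4 (2) and Rpusd4. No test of the genotype difference passed, and Dhx30 was chosen after its values were seen.

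Of 17 genes for transcription, RNA processing and mtDNA upkeep, 3 fell in KO hearts (7.32% of all genes did) and 4 in WT hearts (10% of all genes), and the others did not pass. Tefm, the elongation factor of mitochondrial transcription, changed by -0.58 ± 0.13 in KO hearts (adjusted p = 0.00969) and -0.75 ± 0.13 in WT hearts (adjusted p = 0.00153). Trmt10c, a subunit of mitochondrial RNase P, changed by -0.47 ± 0.12 in KO hearts (adjusted p = 0.0155) and -0.47 ± 0.12 in WT hearts (adjusted p = 0.0127). Without KO IP replicate 3 the KO calls of Tefm and Trmt10c ended, and without WT IP replicate 1 the WT call of Trmt10c. Tfam, which packages and transcribes mitochondrial DNA, changed by -0.14 ± 0.10 in KO hearts (adjusted p = 0.406) and -0.48 ± 0.10 in WT hearts (adjusted p = 0.00427). The WT call of Tfam ended with its probe sets averaged (adjusted p = 0.227). Mterf1a, of the transcription termination factor family, passed in both genotypes with signals of at most 181 units, but the KO call ended under 23 of 26 other settings and the WT call under 9 of 26, which include leaving out any 1 WT array. Of 17 mitochondrial tRNA synthetases, 1 fell in KO hearts (Aars2) and 4 fell in WT hearts (Nars2, Rars2, Yars2 and Lars2), beside the shares of all genes given above. The Aars2 call ended under 10 of 27 other settings, among them leaving out any 1 KO array, the Lars2 call under 16, the Yars2 call under 10, the Nars2 call under 3 and the Rars2 call under 2. Leaving out WT IP replicate 1 ended the calls of Nars2, Rars2 and Yars2.

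**Figure D5:**
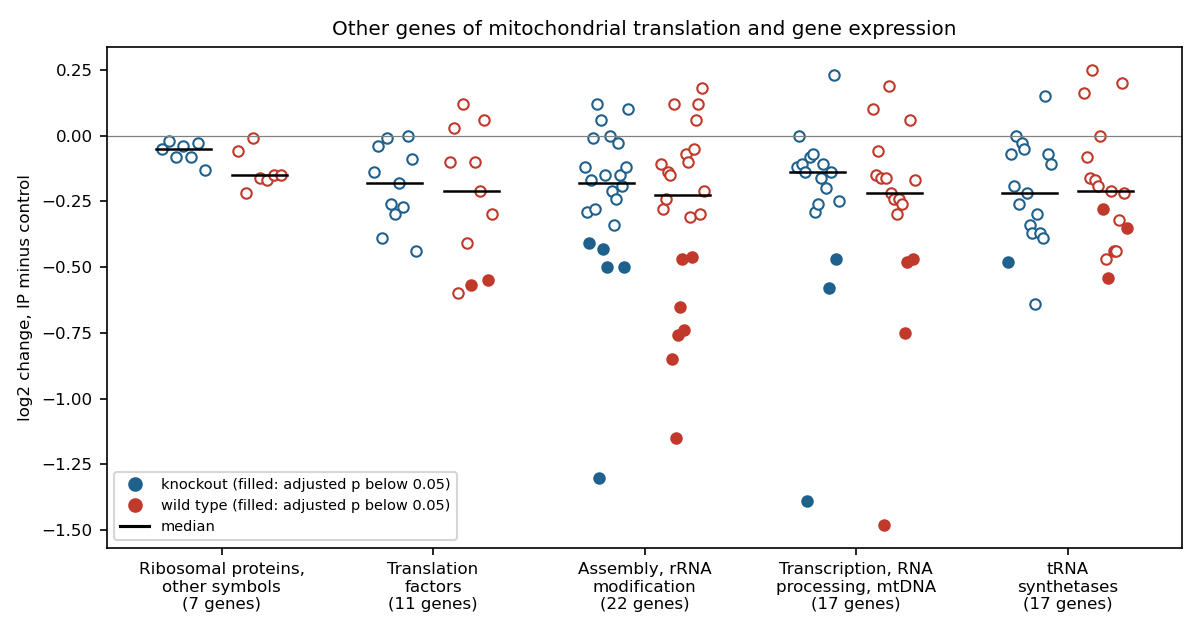
Log2 change of IP minus control (vertical axis) for 5 lists of genes that act with the mitochondrial ribosome, KO hearts in blue and WT hearts in red, filled points for an adjusted p below 0.05 and a line at each median. No filled point lies above 0, and the lowest points, between -1.15 and -1.48, are Mterf1a and Mrm1 in each genotype.

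Regulators of nuclear genes for mitochondria did not share a direction. Of 9, 2 rose (beside 4.82% of all genes) and 1 fell (beside 7.32%) in KO hearts. In WT hearts 3 rose (beside 6.54%) and 3 fell (beside 10%). Myc, a driver of ribosome production and growth, changed by 3.17 ± 0.23 in KO hearts and 3.14 ± 0.23 in WT hearts, and Pprc1, a relative of the PGC-1 coactivators, by 0.43 ± 0.17 in KO hearts (adjusted p = 0.113) and 0.71 ± 0.17 in WT hearts (adjusted p = 0.00978). The WT call of Pprc1 ended without WT IP replicate 1 (adjusted p = 0.0534). Ppargc1a, the coactivator PGC-1α, had 8687, 8306 and 6711 units on KO IP arrays, against 4618, 4139 and 3863 units on KO controls, and 10860, 10825 and 8802 units on WT IP arrays, against 3471, 4018 and 4590 units on WT controls. Its arrays were separate, at log2 changes of 0.90 ± 0.12 in KO hearts (adjusted p = 0.000186) and 1.33 ± 0.12 in WT hearts (adjusted p = 5.03e-06). Ppargc1b, of the same family, changed by -0.92 ± 0.17 in KO hearts (adjusted p = 0.00273) and -0.54 ± 0.17 in WT hearts (adjusted p = 0.0459), a WT call that ended under 16 of 27 other settings, with changes between -0.67 and -0.13 and adjusted p up to 0.76. The KO call of Ppargc1b ended with its probe sets averaged (adjusted p = 0.057). The rise of Ppargc1a and the falls among ribosomal protein genes were thus measured on the same arrays, and no relation between them was tested.

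The authors' deposited table gave a similar count with partly different genes. In it 6 of 142 member probe sets have the decision -1 for IP in KO hearts and 29, from 21 genes, for IP in WT hearts, with no decision of +1 in either. Over all probe sets of the authors' deposited table the decision -1 covers 6.08% in KO hearts and 7.60% in WT hearts, and +1 covers 4.18% in KO hearts and 4.39% in WT hearts. Of the 21 genes with the decision -1 in WT hearts in the authors' deposited table, 14 were among the 21 that fell here, which is 66.7% of each list. For KO against WT in control hearts, the authors' deposited table has 2 of 142 member probe sets at -1 (1.67% of all probe sets) and 0 at +1 (0.486%). These are in Mrpl22, at -0.24, and Mrps6, at -0.26, and neither gene passed here. For KO against WT after IP, the authors' deposited table has 11 of 142 member probe sets at +1 (1.84% of all probe sets) and 2 at -1 (2.02%), where 0 genes passed here. For the genotype difference the authors' deposited table has 1 at +1 (0.611% of all probe sets), the dimmer Mrps2 probe set, at a log2 difference of 0.57.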

How the data were processed

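RNA was hybridized to 12 arrays, 3 in each of 4 groups taken from the labels. Each array's deposited column gives the intensity of every probe set in linear MAS5 units, per the submitters' processing notes. Neither a software version nor a scaling target is given in the sources used here. Per the file headers, a second table deposited by the authors has F-test p-values and mean log2 levels, and for every contrast a log2 difference with a call of -1, 0 or 1 (read here as a score).

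A run of at least 100 zeros on 1 array was set as missing, and 64 control probe sets were left out. Signals were transformed to log2(signal + 16), so changes of low signals are understated. The 27022 probe sets whose mean lay over the 40th percentile were kept, and the brightest probe set with 1 symbol stood for a gene. Symbols were updated by Entrez identifier in a RefSeq table (GRCm38.p6), which matched 36287 of 40137 probe sets. One mean per group was fitted with limma 3.58.1 in R 4.3.3 (8 residual degrees of freedom, moderated with an intensity trend). Tests were two-sided and adjusted over 14044 genes by the Benjamini-Hochberg method. Errors after ± are standard errors of log2 changes, n = 3 arrays a group, and precision is limited by how few arrays there are. The fit was checked on simulated data. Python 3.11.15 and pandas 2.3.3 were used for the tables and promoter searches.

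The members, lists, motifs and tests were chosen with earlier results of these data known. Genes named are the 12 largest falls and 8 largest rises past the threshold in each IP comparison, up to 8 past it in the others or else the 3 with the smallest p, members with known roles, the dimmest and brightest members, and up to 4 (or else 2) of each pathway list. Same-numbered arrays did not deviate together (correlations between -0.06 and 0.08 over 18 pairs), so arrays were treated as unpaired. Alternatives were other offsets, filters, normalizations and rules for probe sets, zeros kept, the limma trend, robust moderation and array weights, the beta-actin ratio as a covariate, a replicate block, only the groups compared, and leaving out each array in turn.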

Additional observations from a re-analysis of the deposited data

How the results depend on the processing

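Counts of members past the threshold, in the order KO hearts, WT hearts and their average, were 3, 21 and 33. Of all genes, 7.32%, 10% and 17.7% were lower in these comparisons, and shares of all genes lower are given likewise below. The counts were 1, 13 and 13 with arrays scaled to the same median (beside 4.74%, 7.16% and 12.5% of all genes). Without an intensity trend they were 1, 11 and 18 (beside 6.02%, 8% and 15.8%). After quantile normalization they were 2, 29 and 37 (beside 5.78%, 10.7% and 17%). The KO count was also 1 with probe sets averaged by gene (beside 5.28%), with zeros kept (beside 5.53%) and with only the groups compared (beside 6.36%). Without a filter it was 1 as well, with no share given here. The count for KO against WT after IP was 1 with array weights and 1 with only the groups compared, and 0 otherwise. With single arrays left out, the counts were 0 to 3 in KO hearts, 7 to 21 in WT hearts and 19 to 31 for the average. The shares of all genes lower then ran from 3.56% to 7.31%, from 5.98% to 10.1% and from 14.2% to 16.2%. With the replicate number as a block the counts were 2, 17 and 25 (beside 6.29%, 9.17% and 16.6%). Replicate numbers pair no samples here. For control hearts and for the genotype difference, 0 members passed under every setting tried.

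Some named genes changed sign, always at an adjusted p above 0.3. With zeros kept, Mrpl34 was 1.89 in WT hearts, 0.86 in the average and -2.05 for the genotype difference, Mrps22 was 1.96, Mrpl51 3.24 and Chchd1 2.78 in WT hearts, since a false 0 enters the control mean. With probe sets averaged, Ptcd3 was 0.05 in WT hearts and Mrpl33 0.09 for KO against WT controls. In KO hearts Mrpl12 was 0 after quantile normalization, Mrpl3 -0.01 with the actin covariate and -0.03 to 0.07 with 1 array left out (-0.02 without KO control replicate 1), and Mrps12 -0.10 to 0.02 with 1 array left out; these causes were not tested. With 3 arrays a group, the SE printed beside each gene limits what could be resolved.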
